A study of Mus musculus with 6 samples.

Results

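The genes described here encode the catalytic and regulatory subunits of phosphoinositide 3-kinase (PI3K) and the B cell adaptor that recruits it. They are Pik3ca, Pik3cb, Pik3cd, Pik3cg, Pik3r1, Pik3r2, Pik3r4, Pik3r5, Pik3r6 and Pik3ap1, chosen by symbol through the Ensembl gene identifier. All 10 were measured, among 14864 genes in the deposited table, and all 10 passed the filter on low values. RNA came from flow-sorted marginal zone B cells of spleens of C57BL/6 mice aged 8 weeks, with 3 libraries from wild-type mice (WT) and 3 from mice with a conditional knockout of CK2α (cKO). No other allele or agent is given for either group, and neither are the Cre driver, the deleted exons, the sort gates, sex or litter. Separate animals per library are not stated, so p-values measure the spread between libraries, which may be technical in part.

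PI3K phosphorylates the membrane lipid PIP2 to PIP3, which recruits kinases such as AKT and BTK, and in B cells it carries signals of the B cell receptor and the BAFF receptor. Class IA enzymes pair a p110 catalytic subunit with a p85-type regulatory subunit that binds phosphorylated tyrosines, whereas the class IB enzyme p110γ pairs with p101 or p84 and answers G protein-coupled receptors. The δ isoform, made in leukocytes, is known from mouse genetics as an isoform that marginal zone B cells need. CK2, a constitutively active serine and threonine kinase, is known to phosphorylate AKT, which acts downstream of the same lipid signal.

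The libraries held 18778776 to 23503756 reads, recovered from the deposited values. The values, called normalised reads here, are read counts that the authors divided by a factor for each library. The targeted gene Csnk2a1 stood at 4069, 3861 and 3939 normalised reads in the WT libraries (replicates 1, 2 and 3, the order used throughout) and at 4124, 3951 and 4060 in those labelled cKO, with no fall. A gene-level value does not show a deleted exon, so the labels could not be checked on it. Of the 9 marginal zone B markers fixed for the check, all were detected at means of at least 1781 normalised reads, and the 6 follicular B markers at means of at least 2516. The summed follicular markers stood at 48930 to 54140 in WT and at 38120, 52320 and 38310 in cKO. Replicate 2 of cKO thus lay within the WT range and the other cKO libraries below it, and 3 of the 6 markers fell and 0 rose by limma. The summed marginal zone markers stood at 130700 to 138500 in WT and at 161600, 133000 and 159500 in cKO, with 5 of 9 higher and 0 lower. Markers of myeloid cells, which also make p110γ and its partners, summed to 1249 to 1927 in WT and 1304 to 2036 in cKO, with 0 of 8 called.

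To show the control regions of the class IA catalytic gene with the lowest level and of the one with the highest, the RefSeq promoter windows of Pik3cb and Pik3cd are printed 5′ to 3′ on the gene's strand, from 250 bases before a transcription start to 50 after it (build GRCm38.p6, 13 windows for 9 of the members and none for Pik3r6). Capitals mark matches, on either strand, to the GC box GGGCGG, the CCAAT box, the Ets core CCGGAA, the TATA box TATAAA or the E box CACGTG, and no matches overlapped in these windows.
Pik3cb, chr9:99140162-99140461, strand -: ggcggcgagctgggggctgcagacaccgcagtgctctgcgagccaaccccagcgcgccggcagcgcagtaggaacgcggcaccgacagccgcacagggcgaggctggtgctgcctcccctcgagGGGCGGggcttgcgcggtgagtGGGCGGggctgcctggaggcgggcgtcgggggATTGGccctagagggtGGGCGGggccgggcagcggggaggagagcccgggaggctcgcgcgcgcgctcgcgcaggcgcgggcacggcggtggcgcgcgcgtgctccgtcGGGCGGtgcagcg
Pik3cd window 1, chr4:149698659-149698958, strand -: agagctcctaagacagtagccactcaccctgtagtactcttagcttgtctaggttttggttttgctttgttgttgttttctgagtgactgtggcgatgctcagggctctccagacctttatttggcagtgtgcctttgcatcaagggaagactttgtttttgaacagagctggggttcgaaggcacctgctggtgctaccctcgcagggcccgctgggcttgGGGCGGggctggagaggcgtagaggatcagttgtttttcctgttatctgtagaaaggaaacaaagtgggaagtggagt
Pik3cd window 2, chr4:149676040-149676339, strand -: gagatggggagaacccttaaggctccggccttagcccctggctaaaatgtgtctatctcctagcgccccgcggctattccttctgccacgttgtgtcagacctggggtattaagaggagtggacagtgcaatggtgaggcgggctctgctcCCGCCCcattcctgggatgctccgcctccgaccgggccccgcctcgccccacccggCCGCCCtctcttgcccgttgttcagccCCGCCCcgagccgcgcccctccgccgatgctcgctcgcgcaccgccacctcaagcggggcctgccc
Pik3cd window 3, chr4:149663267-149663566, strand -: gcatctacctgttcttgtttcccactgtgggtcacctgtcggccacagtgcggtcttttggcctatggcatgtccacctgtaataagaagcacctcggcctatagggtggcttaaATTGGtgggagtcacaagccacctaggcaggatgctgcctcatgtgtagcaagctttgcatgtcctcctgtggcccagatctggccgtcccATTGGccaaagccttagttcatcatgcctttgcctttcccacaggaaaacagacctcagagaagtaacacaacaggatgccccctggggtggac

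The single Pik3cb window held 44 CpG dinucleotides, more than 97.8% of the 32851 windows in the table, whose median was 7. It held 4 GC boxes and 1 CCAAT. The Pik3cd gene has 3 windows, with 6, 26 and 4 CpG and with 1, 3 and 0 GC boxes. A GC box occurs in 35.7% of all windows, CCAAT in 37.4%, the Ets core in 14.9%, TATAAA in 13.6% and CACGTG in 7.15%. The Pik3cb window was richer in CpG than each of the Pik3cd windows. A letter match is a description of the sequence, and the values below were counted per gene, so they do not show which start was used.

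None of the 10 genes passed the test between genotypes. With limma's moderated test on log2(normalised reads + 1) and Benjamini-Hochberg adjustment over all genes, 0 rose and 0 fell at an adjusted p under 0.05, against 1494 of 14855 genes tested (10.1%), of which 755 were higher (5.08%) and 739 lower in cKO (4.97%). At an unadjusted p under 0.05 the count was 1 (Pik3cb), against 26.8% of all genes. The edgeR and DESeq2 tests on recovered reads called 0 as well, DESeq2 among the 9 members to which it gave an adjusted p (none for Pik3r6), with 1 (Pik3cb) and 2 (Pik3cb and Pik3cd) at an unadjusted p under 0.05. The groups did not overlap for 2 members, Pik3cb and Pik3r1, against 31.6% of all genes. The median log2 difference, always cKO minus WT, was -0.035 for the members and -0.0009 for all genes, and the median size was 0.12 and 0.16. The count over all genes moved with the libraries used, and fits with 5 libraries have fewer degrees of freedom. Leaving out WT replicate 1, 2 or 3 gave 510, 1148 and 497 calls, and the fits lacking cKO replicate 1 or 3 gave 927 and 531. With cKO replicate 2 left out there were 1730, of which 787 were higher and 943 lower, and 2 members, Pik3cd and Pik3cg, were then called lower.

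**Figure D1:**
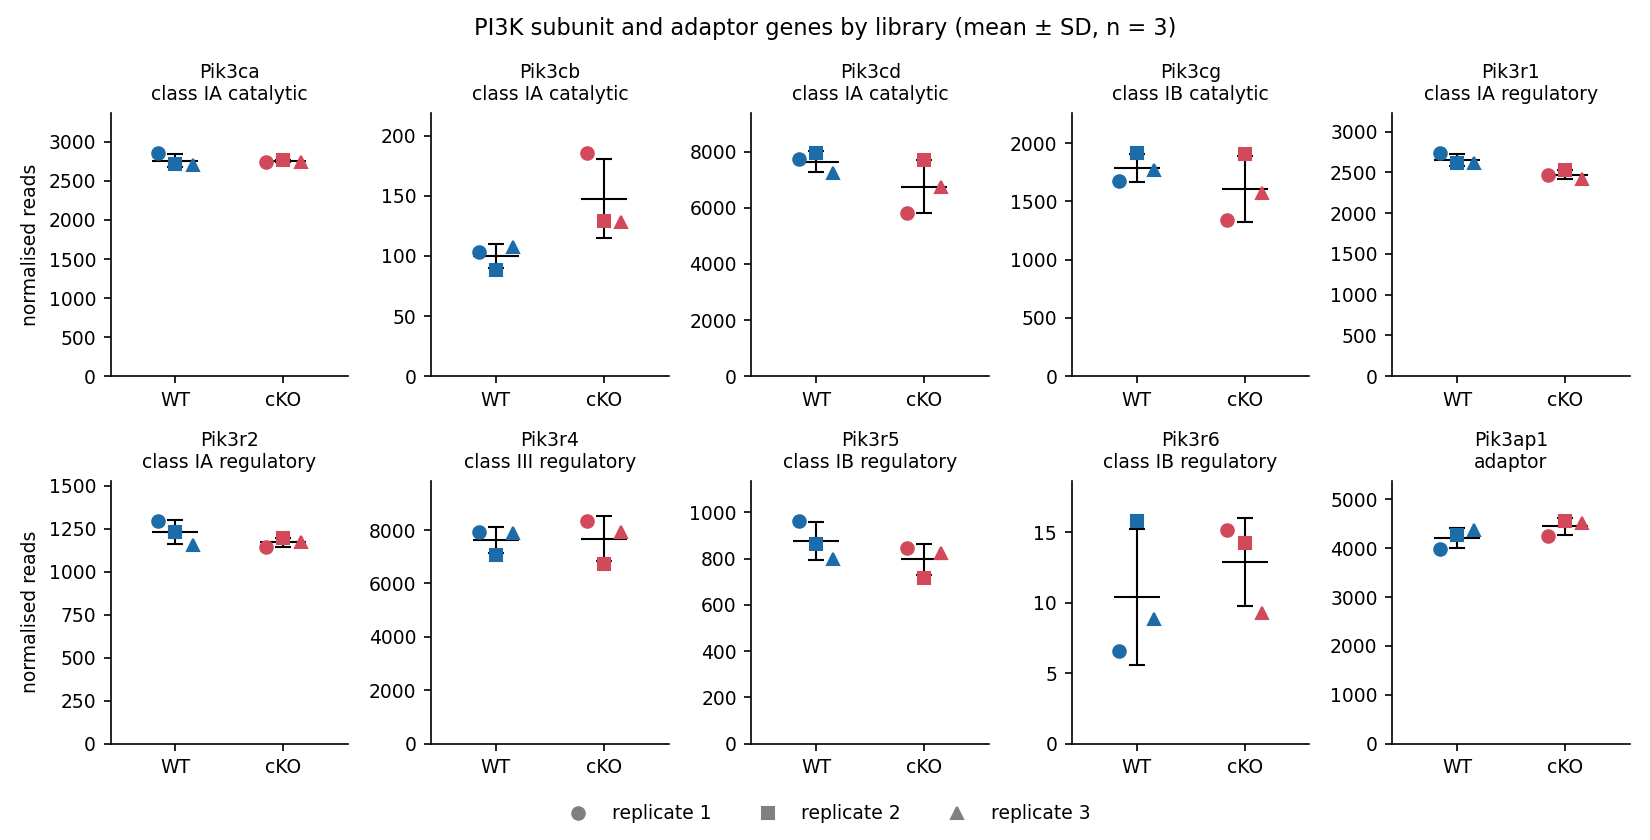
Normalised reads of each member (vertical axis, from 0) in the 3 WT and 3 cKO libraries, with one symbol per replicate number and the mean ± SD in black. The WT and cKO values are separate for Pik3cb (higher in cKO) and Pik3r1 (lower in cKO) and overlap for the other 8 genes.

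The members differed far more from each other than between genotypes. Divided by the merged length of all annotated exons, the highest level was that of Pik3cd, at 1221 ± 57.9 normalised reads per kb for WT and 1078 ± 152 for cKO (± SD, n = 3 libraries). Pik3r4 and Pik3ap1 followed at 793 and 777 per kb over the 6 libraries, with overlapping values. Next came Pik3ca at 303 and Pik3r2 at 287, which overlapped too, then Pik3r1 at 254, Pik3cg at 201 and Pik3r5 at 151, the last pair again with overlapping values. Pik3cb stood at 17.2 per kb and Pik3r6 at 3.21. The order at the top and in the middle depends on the length used. Per kb of the longest coding sequence Pik3cd (2291), Pik3r4 (1879) and Pik3ap1 (1780) stayed on top, and Pik3r1, at 1180, moved ahead of Pik3ca and Pik3r2. Per kb of the transcript with that coding sequence Pik3r4 (1610) stood above Pik3cd (1462).

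**Figure D2:**
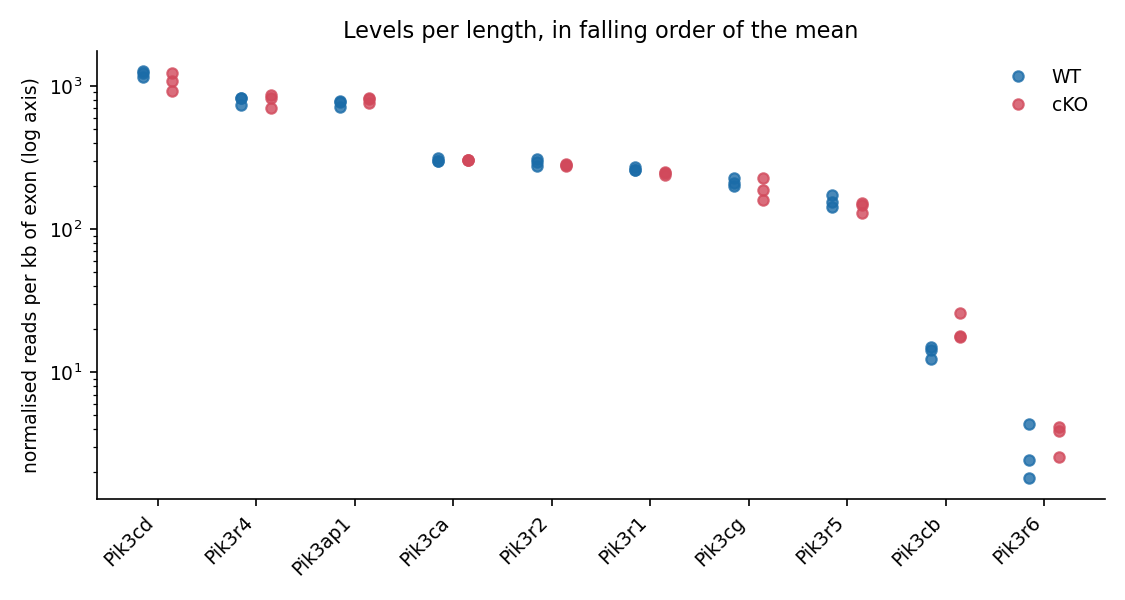
Normalised reads per kb of merged exon length (log axis) for each member, in falling order of the mean, with 1 point per library. The genes span from 3.21 (Pik3r6) to 1150 (Pik3cd) per kb on average, and points of WT and cKO lie close together beside that span. They are still separate for Pik3r1 and for Pik3cb, whose means were 13.87 per kb in WT and 20.49 in cKO.

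Among the catalytic subunits, p110δ transcripts made up most of the class I signal. On the scale per kb of exon, Pik3cd held 69.7% ± 0.745 of the summed signal of the 4 class I catalytic genes in WT and 67.6% ± 1.85 in cKO, Pik3ca 17.4% ± 0.704 and 19.2% ± 2.13, Pik3cg 12.1% ± 0.736 and 11.9% ± 0.742, and Pik3cb 0.795% ± 0.106 and 1.32% ± 0.443 (± SD of 3 libraries). The share of Pik3cb ran from 0.681% to 0.891% in WT and from 1.01% to 1.82% in cKO, without overlap, and the ratio of Pik3cd to Pik3cb per kb was 77.3 to 103.1 in WT and 35.9 to 68.6 in cKO. Per kb of coding sequence the share of Pik3cd was 62.9% in WT and 60.6% in cKO. These shares are descriptions of RNA and carry no test.

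Pik3cd (ENSMUSG00000039936, chromosome 4), which encodes p110δ, had 7748, 7942 and 7241 normalised reads in WT and 5793, 7694 and 6754 in cKO. Replicates 1 and 3 of cKO lay below every WT library, and replicate 2 lay among them. The means were 7644 ± 362 and 6747 ± 950, a log2 difference of -0.19 ± 0.09 (SE) with a 95% interval of -0.38 to 0.0075, and the adjusted p by limma was 0.202. In ratio, cKO stood at 0.878 of WT, with an interval of 0.766 to 1.005. The size rested on single cKO libraries. Without cKO replicate 2 the difference was -0.29 and passed (limma's adjusted p = 0.0298), and without cKO replicate 1 it was -0.084 (0.532), in a range of 0.0298 to 0.96 over the 16 alternatives.

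Pik3cg (ENSMUSG00000020573, chromosome 12), the gene of p110γ, had the same shape. It stood at 1678, 1915 and 1773 normalised reads in WT and at 1338, 1904 and 1572 in cKO. Replicate 2 of cKO was again inside the WT range and the other cKO libraries were below it. The log2 difference was -0.17 ± 0.11, with an interval of -0.41 to 0.068 and an adjusted p by limma of 0.345. With cKO replicate 2 left out it was -0.30 (limma's adjusted p = 0.0415), and with cKO replicate 1 left out it was -0.046 (0.805). These adjusted p values were the ends of their range over the alternatives. The log2 difference itself ran from -0.30 to 0.084 over them.

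The order of the 6 libraries by Pik3cg was that of the summed follicular markers, from WT replicate 2 at the top through cKO replicate 2, WT replicate 3 and WT replicate 1 to cKO replicates 3 and 1. The order by Pik3cd differed from it in the places of WT replicates 1 and 3 and cKO replicate 2. In a fit with the follicular sum as a covariate, added after the data had been seen, the log2 difference was -0.011 for Pik3cd and 0.084 for Pik3cg (adjusted p by limma 0.96 and 0.657). It did not shrink every member's difference: in the same fit that of Pik3r5 went from -0.14 to -0.28, that of Pik3r4 from 0.0042 to -0.17, that of Pik3cb from 0.54 to 0.36 and that of Pik3r6 from 0.34 to 0.63, with 0 members called. Follicular and marginal zone cells in a sort and a shift of these genes within each cell cannot be told apart in bulk RNA. Likewise, fewer cells of a type and less RNA per cell cannot be told apart.

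**Figure D3:**
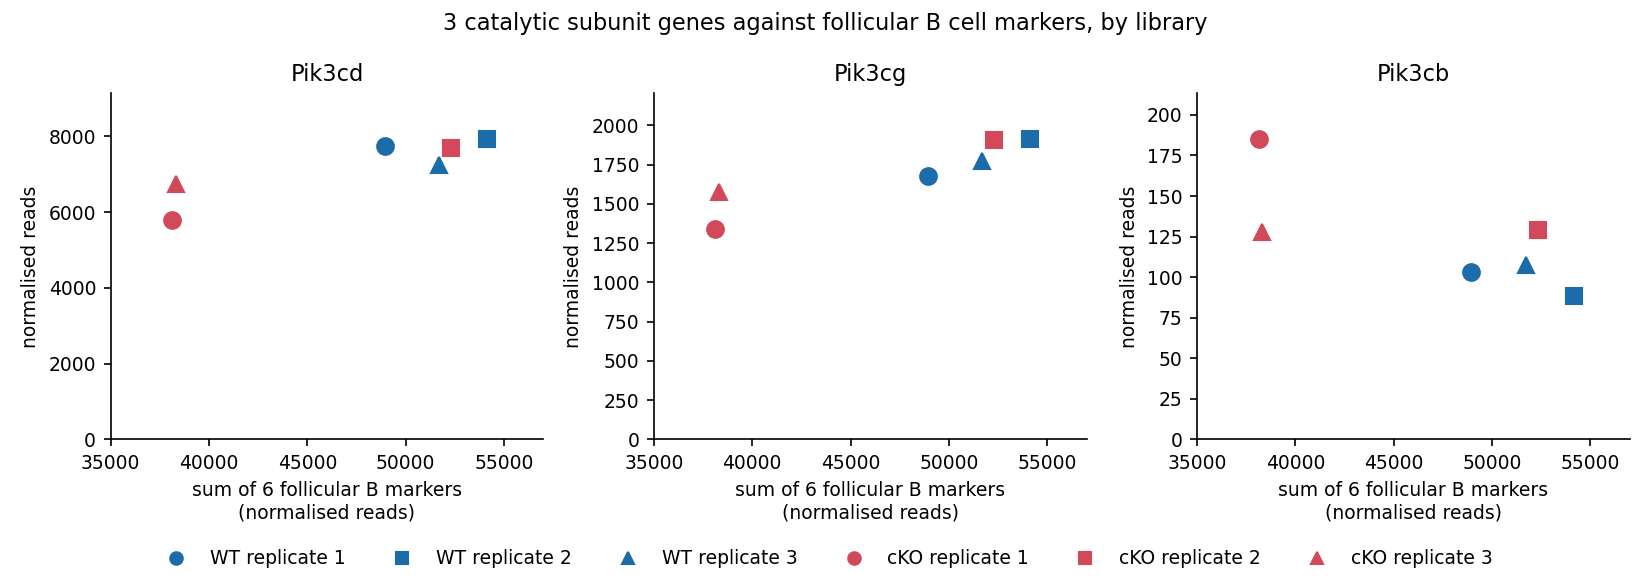
Normalised reads of Pik3cd, Pik3cg and Pik3cb (vertical axes, from 0) against the sum of 6 follicular B cell markers (horizontal axis, not from 0), with 1 point per library. cKO replicates 1 and 3 lie apart at the left with a sum of about 38120 to 38310, and cKO replicate 2 lies among the WT libraries on the horizontal axis.

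Pik3cb (ENSMUSG00000032462, chromosome 9) encodes p110β, a widely made isoform that receptor tyrosine kinases and G protein-coupled receptors can engage. It had 103, 88.5 and 108 normalised reads in WT and 185, 129 and 128 in cKO. Every cKO library was above every WT library, and cKO replicate 1 was highest. The log2 difference of 0.54 ± 0.18 had a 95% interval of 0.15 to 0.93, a ratio of 1.46 with bounds of 1.11 and 1.91. With an unadjusted p of 0.011 and an adjusted p of 0.078 by limma, it missed the threshold. The counts behind it were low, at 94, 84 and 110 recovered reads in WT and 208, 136 and 124 in cKO. Over the alternatives the log2 difference ran from 0.36 to 0.63 and the adjusted p from 0.0608 to 0.427. Leaving out cKO replicate 1 gave 0.37 (adjusted p = 0.224).

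Pik3ca (ENSMUSG00000027665, chromosome 3), which encodes the ubiquitous p110α, was nearly level. It stood at 2856, 2716 and 2703 normalised reads in WT and at 2746, 2770 and 2741 in cKO, with the cKO values inside the WT range. The log2 difference was -0.0028 ± 0.05, with an interval of -0.12 to 0.11, and its sign turned in 3 alternatives. A change beyond a ratio of 0.923 or 1.08 therefore lay outside the interval.

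**Figure D4:**
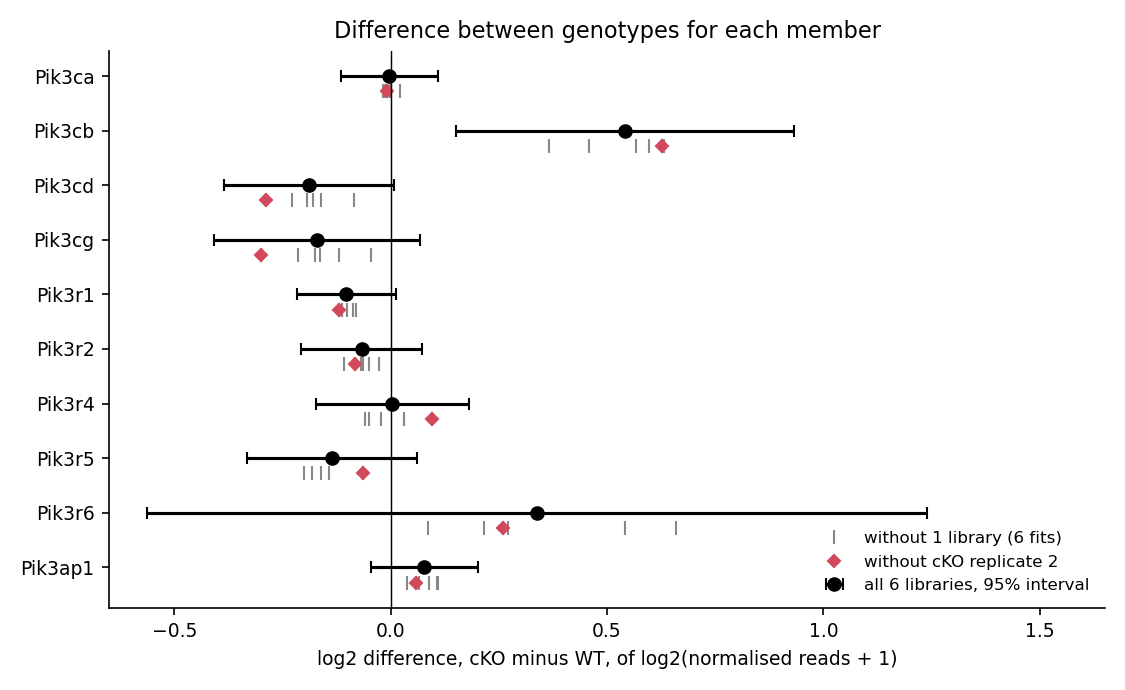
Log2 difference between cKO and WT for each member (horizontal axis), with the 95% interval from limma as bars. Grey ticks are the 6 fits that leave out 1 library each, and the red diamond is the fit without cKO replicate 2. The interval of Pik3cb lies wholly above 0 before adjustment, and the diamonds of Pik3cd and Pik3cg lie to the left of their other values.

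The regulatory subunits of class IA showed small differences. Pik3r1 (ENSMUSG00000041417, chromosome 13) encodes p85α and the shorter p55α and p50α, which stabilise p110 and hold it inactive until a phosphotyrosine is bound. It had 2735, 2612 and 2614 normalised reads in WT and 2469, 2529 and 2419 in cKO. All cKO values were below all WT values, by a small margin. The log2 difference was -0.10 ± 0.05, with an interval of -0.22 to 0.012 and an adjusted p by limma of 0.235, and no alternative called it (0.177 to 0.559). The gene has 2 RefSeq promoter windows, and a gene-level value does not tell its isoforms apart.

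Pik3r2 (ENSMUSG00000031834), which encodes p85β, had 1297, 1231 and 1158 normalised reads in WT and 1145, 1198 and 1173 in cKO. The groups overlapped through WT replicate 3. The log2 difference was -0.067 ± 0.06, with an interval of -0.21 to 0.073 and an adjusted p by limma of 0.544. Of its exon length 1.08% is shared with a gene on the other strand, whose reads cannot be told apart without a strand setting.

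A further class IA regulatory gene, Pik3r3, is no member and is given here only as part of the sum. Per kb of exon, Pik3r2 held 50.8% ± 1.04 and 50.7% ± 0.369 of the class IA regulatory signal in WT and cKO, Pik3r1 45.5% ± 0.767 and 44.3% ± 0.849, and Pik3r3 3.71% ± 0.278 and 4.95% ± 0.83. The order of Pik3r1 and Pik3r2 depends on the length used. Per kb of the longest coding sequence Pik3r1 stood at 1180 and Pik3r2 at 554 over the 6 libraries. Per kb of the transcript with that coding sequence they stood at 360 and 379. The regulatory shares and the ratio below were computed per kb of exon only. The ratio of the class IA regulatory to the class IA catalytic signal was 0.376 ± 0.0113 in WT and 0.398 ± 0.0365 in cKO. The groups overlapped in it.

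The class IB regulatory genes differed in level. Pik3r5 (ENSMUSG00000020901, chromosome 11) encodes p101, which lets p110γ respond to G protein βγ subunits. It had 964, 864 and 798 normalised reads in WT and 848, 718 and 823 in cKO. The values overlapped, and the log2 difference of -0.14 ± 0.09 (interval -0.33 to 0.061) gave an adjusted p by limma of 0.361. Its size was smaller without WT replicate 1 (-0.064) or cKO replicate 2 (-0.063), and no alternative called it (0.155 to 0.743). The ratio of Pik3r5 to Pik3cg per kb was 0.747 ± 0.109 in WT and 0.777 ± 0.195 in cKO.

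Pik3r6 (ENSMUSG00000046207, chromosome 11) encodes the alternative partner p84. It was near the lower limit of the table, with 6, 15 and 9 recovered reads in WT and 17, 15 and 9 in cKO, or 10.4 ± 4.81 and 12.9 ± 3.15 normalised reads. The log2 difference of 0.34 ± 0.41 had an interval of -0.56 to 1.24, which at these low counts spans changes of either sign.

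Pik3r4 (ENSMUSG00000032571, chromosome 9) encodes VPS15, the regulatory subunit of the class III lipid kinase VPS34, which acts in autophagy and endosomal traffic and not on PIP3. It was among the most abundant members, at 7922, 7077 and 7905 normalised reads in WT and 8351, 6746 and 7935 in cKO. Replicate 2 was lowest in each group, and the groups overlapped. The log2 difference was 0.0042 ± 0.08 (interval -0.17 to 0.18, adjusted p by limma 0.982), and its sign turned in 5 alternatives, the rescaling without immunoglobulin genes among them. Of 7 partners of the class III complex, Rubcn and Uvrag among them, 0 rose and 0 fell by limma. Pik3c3, the gene of VPS34 itself, stood at 1223 ± 22.7 and 1291 ± 81.4 normalised reads, Rubcn at 7636 ± 432 and 7398 ± 37.6, and Uvrag at 4477 ± 15.9 and 4261 ± 92.9 in WT and cKO.

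Pik3ap1 (ENSMUSG00000025017, chromosome 19) encodes BCAP, which the B cell receptor's kinases phosphorylate on tyrosines that bind p85. It had 3988, 4276 and 4378 normalised reads in WT and 4254, 4564 and 4524 in cKO. The cKO range began below the highest WT value. The log2 difference was 0.078 ± 0.06, with an interval of -0.046 to 0.20 and an adjusted p by limma of 0.41, and no alternative called it (0.317 to 0.746).

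For 8 of the 10 members the 95% interval lay within 0.5 on either side of 0, and the exceptions were Pik3cb and Pik3r6. Exact permutation tests of single members gave two-sided p values from 0.1 to 1, where 0.1 is the smallest that 3 against 3 libraries allow. It was reached by Pik3cb and Pik3r1.

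The other genes of the pathway, in 5 lists, had calls in both directions. Of 80 tested, 4 rose (5.0%) and 12 fell (15%), beside 5.08% and 4.97% of all genes, with a median log2 difference of -0.0099. The lower calls thus lay above the share over all genes and the higher calls near it, a description that carries no test. The lists were chosen with earlier results of these data known, so an excess of calls in them cannot be read as a result about the pathway. The counts of 4 and 12 also moved with the libraries used, in fits with fewer degrees of freedom. They were 1 and 6 when WT replicate 1 was left out, 3 and 8 when WT replicate 2 was and 1 and 4 when WT replicate 3 was. For cKO they were 2 and 7 without replicate 1, 5 and 13 without replicate 2 and 2 and 5 without replicate 3. With the follicular covariate they were 2 and 4.

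Of 5 other PI3K family genes, 1 rose and 1 fell. Pik3ip1, a transmembrane protein that binds p110 and restrains it, had 1280, 1401 and 1270 normalised reads in WT and 1653, 1825 and 1575 in cKO. All cKO values were above all WT values, a log2 difference of 0.35 ± 0.07 (adjusted p by limma 0.0136), which lost its call without WT replicate 1 (0.0586) or WT replicate 3 (0.0654). Pik3c2b, a class II enzyme, had 5150, 4239 and 4880 in WT and 3715, 4170 and 3834 in cKO. It fell by 0.28 ± 0.08 on the log2 scale (adjusted p by limma 0.041). That call was lost with the replicate block (0.06), with the follicular covariate (0.217, at a log2 difference of -0.24) and on leaving out replicate 1 or 3 of WT (0.148 and 0.136) or of cKO (0.103 and 0.125). The class II gene Pik3c2a was not called (0.070 ± 0.06).

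Among 23 receptors and adaptors that feed PI3K, 1 rose (4.35%) and 3 fell (13.0%). Cd81, a tetraspanin of the B cell membrane, rose by 0.54 ± 0.07. Irs2, an insulin receptor substrate that binds p85, fell by 0.81 ± 0.13, Il4ra, the IL-4 receptor chain, by 0.44 ± 0.11 and Vav3, a guanine nucleotide exchange factor, by 0.39 ± 0.11 on the log2 scale. The adjusted p values by limma were 0.00111, 0.00435, 0.034 and 0.0455. Il4ra and Vav3 lost their call with the follicular covariate (0.286 and 0.305, at log2 differences of -0.14 and -0.28) and on leaving out replicate 2 or 3 of WT or replicate 1 or 3 of cKO, with adjusted p up to 0.121 and 0.154, and Il4ra also without WT replicate 1 and under robust moderation (0.0862 and 0.0883). The most abundant uncalled genes of the list were Cr2, which encodes CD21, at 65810 ± 2120 and 69590 ± 8710, and Cd79a, a B cell receptor chain, at 34960 ± 2180 and 34760 ± 2980 normalised reads in WT and cKO.

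Among 19 phosphoinositide phosphatases, 1 rose and 1 fell (5.26% each). Inpp4b, which removes a phosphate from the PI3K product PI(3,4)P2, fell in all 3 cKO libraries, from 1332, 1361 and 1417 to 627, 525 and 571 normalised reads (log2 difference -1.26 ± 0.08, adjusted p by limma 3.38e-05). Inpp5f rose by 0.22 ± 0.06 (adjusted p by limma 0.0436), and lost its call with the follicular covariate (0.346, at 0.12), when rescaled without immunoglobulin genes (0.0555) and without any single library other than cKO replicate 2 (0.088 to 0.152). Inpp5d, which encodes SHIP1, stood at 7541 ± 148 and 8273 ± 416 normalised reads in WT and cKO and was not called.

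Among 28 readers of PIP3 and downstream genes, 1 rose (3.57%) and 7 fell (25.0%). Dapp1, an adaptor that binds PIP3, rose by 0.23 ± 0.05. Tsc1, an inhibitor of mTORC1, fell by 0.38 ± 0.06, Tec, a kinase with a PIP3-binding domain, by 0.64 ± 0.11, Foxo1, a transcription factor that AKT keeps out of the nucleus, by 0.32 ± 0.07 and Phlpp2, an AKT phosphatase, by 0.28 ± 0.07 on the log2 scale. The adjusted p values by limma of these 5 were 0.0194, 0.00377, 0.00559, 0.0172 and 0.0235. The call of Dapp1 was lost on leaving out replicate 1 or 3 of either group (0.0519 to 0.0815), that of Foxo1 on leaving out replicate 3 of either group (0.0783 and 0.0727) and that of Phlpp2 on leaving out any library other than cKO replicate 2 (0.0508 to 0.0941). With the follicular covariate the adjusted p of these 3 genes was 0.0961, 0.163 and 0.187, at log2 differences of 0.23, -0.19 and -0.22, so that of Dapp1 kept its size. Tec (-0.37, adjusted p by limma 0.0287) and Tsc1 (-0.35, 0.0371) passed with that covariate, and they passed in the other alternatives too, as did Cd81, Irs2 and Inpp4b. The remaining 3 genes that fell, named after their values were seen, were Rictor (-0.39), Tsc2 (-0.26) and Sgk1 (-0.56), with adjusted p by limma of 0.0239, 0.0247 and 0.0309. Each lost its call with the follicular covariate (0.235, 0.111 and 0.0841, at -0.20, -0.26 and -0.65). Each also lost it on leaving out replicate 1 or 3 of WT (0.0815 to 0.126). Rictor lost it too without WT replicate 2 (0.0549) or cKO replicate 3 (0.0783), Tsc2 without cKO replicate 3 (0.103), and Sgk1 without cKO replicate 1 (0.076) or 2 (0.0502). The uncalled genes with the highest level were Dock2, a Rac activator, and Plekha2, which binds a PI3K product.

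**Figure D5:**
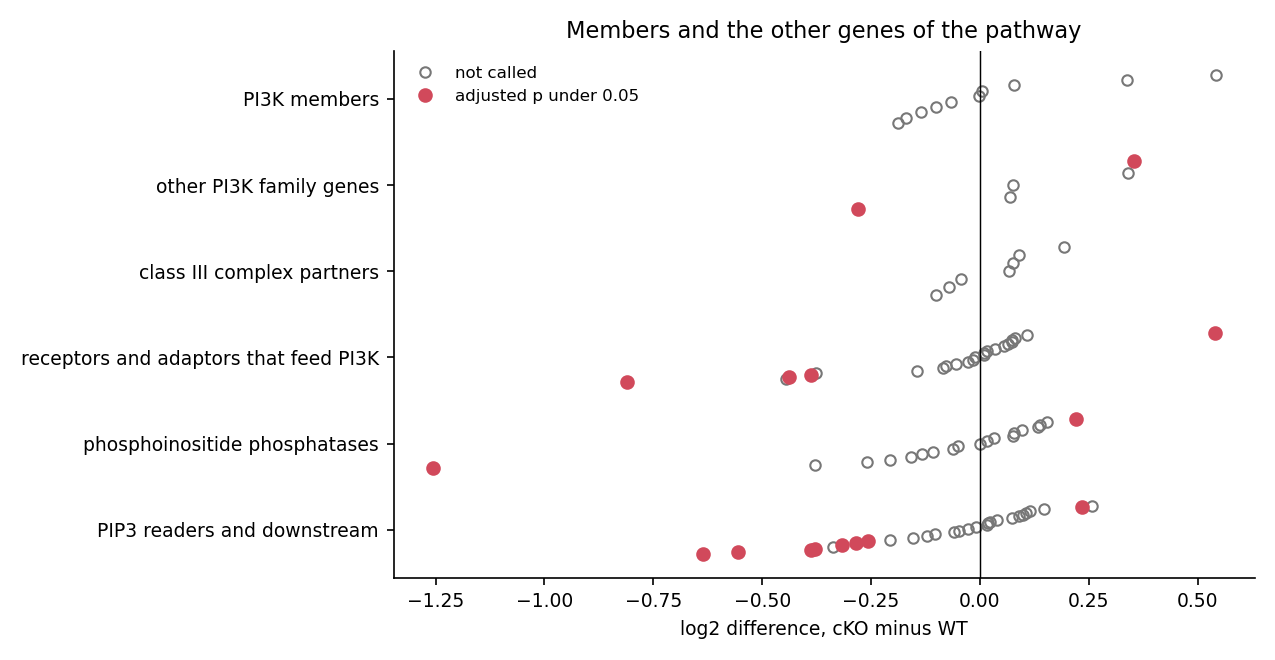
Log2 difference between cKO and WT (horizontal axis) of the 10 members and of the genes of 5 pathway lists, 1 point per gene, spread vertically by rank within a list. Filled red points passed the limma threshold and open points did not. No member is filled, while 4 list genes are filled to the right of 0 and 12 to the left.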

How the data were processed

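Per the submitters' processing notes, bcl2fastq 2.17, Trimmomatic 0.36 and STAR 2.5.2b were used with the build mm9. For the counting tool, annotation, strand setting and normalisation tool the answer is not given in the sources used here. Each deposited value is a signal, a read count divided by a library factor by the authors, judged from the numbers: 100.0% were whole multiples of what 1 read is worth, within 0.02 of a read. This gave 18778776 to 23503756 reads per library, where 1 read was worth 0.891 to 1.10 normalised reads. Library pairs of one group differed by a chi-square per gene of 6.37 to 12.7, more than sampling noise, so each library counts once. Pairs from different groups differed by 12.66 to 27.82. The widest pair of one group, cKO replicates 1 and 2, stood at 12.71, beside 12.66 for WT replicate 2 and cKO replicate 2. These values do not show whether the libraries came from separate animals.

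Symbols, chromosomes and lengths came from GENCODE M21 on GRCm38, which named 14808 of 14864 identifiers. Promoter sequences are RefSeq's. The deposited build differs, so GRCm38 coordinates are given only for the promoter windows and were not joined to the deposited values.

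Genotypes were compared with limma 3.58.1 under R 4.3.3 (lmFit, then eBayes with a trend; two-sided) on log2(value + 1), with no other term, over the 14855 genes with a mean of at least 10 (9 left out). It was checked on simulated data. P-values were adjusted by Benjamini-Hochberg over all genes tested, with a threshold of 0.05. The ± after a log2 difference is its SE, and after a level its SD over 3 libraries. The scale with a pseudocount of 1 understates changes of low genes.

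Alternatives were pseudocounts of 0.5 and 5, no filter, a mean of at least 100, edgeR 4.0.16 (quasi-likelihood, TMM) and DESeq2 1.42.0 on recovered reads, robust moderation, rescaling without immunoglobulin genes, a replicate block, and each library left out. A follicular marker sum as a covariate and other lengths were added after seeing the data. The members, gene lists and tests were chosen with earlier results of these data known. All members are named, with up to 4 called genes in each direction and the 2 highest uncalled genes of each pathway list, of which 1 is not reported here. T cell, NK, dendritic, plasma, erythroid and stromal markers were also summed. Of 7 T cell markers 3 were measured, summing to 657 to 758 in WT and 352 to 492 in cKO, mostly from Lck, and 1 fell. Cd3e, Cd3d, Cd3g and Trac were not among the named genes of the deposited table. The same holds for Ncr1 and Nkg7 of the NK markers, Pf4 of the erythroid and platelet ones and Col1a1 of the stromal ones. Plasma cell markers summed to 9243 to 13620 and 7390 to 8895, with 1 of 5 lower, dendritic ones to 302 to 337 and 286 to 396, with 1 of 4 higher, NK ones to 22 to 31.3 and 18 to 28.9, erythroid and platelet ones to 503 to 8342 and 607 to 3904, and stromal ones, mostly Pecam1, to 4396 to 5252 and 4301 to 5365. No measured marker was at 0 in any library. Their part in the results was not tested.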

Additional observations from a re-analysis of the deposited data

How the results depend on the processing

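No member was called higher in any of the 16 alternatives, and 2 were called lower in 1 of them, without cKO replicate 2 (0 to 2 over the fits that leave out a library). In that fit 943 of the 14855 genes tested were called lower. Of 158 values of single members with an adjusted p (DESeq2 gave none for Pik3r6, and that gene has no value at a mean of at least 100), 147 kept their sign and their side of the threshold. The sign of Pik3ca turned with edgeR (0.0019) and in a range of -0.017 to 0.023 over the fits that leave out a library, that of Pik3cg with the follicular covariate (0.084), and that of Pik3r4 with the follicular covariate (-0.17), without immunoglobulin genes (-0.010) and in a range of -0.059 to 0.095 with a library left out. Among other genes, Cr2 (-0.11), Csnk2a1 (-0.0079) and Cd79a (0.13) turned with that covariate, and Cd79a ran from -0.078 to 0.040 with a library left out. The cause was not tested.

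Over all genes, leaving out a library gave 247 to 787 higher and 221 to 943 lower, and the covariate 210 and 235. For the pathway lists these were 1 to 5 higher and 4 to 13 lower, and 2 and 4. The fits with 5 libraries, and that with a further term, have fewer degrees of freedom. A replicate block gave 767 higher and 784 lower genes and 0 members. Deviations of same-numbered libraries correlated at -0.075, -0.020 and 0.147, so the numbers were not taken as pairs. The other scalings moved the median of all genes to at most 0.0046 and at least -0.0154. Rescaling without immunoglobulin genes gave 644 higher and 831 lower genes. Depth limits Pik3r6 and, less so, Pik3cb.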
